A study of Mus musculus with 6 samples.

Results

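The proteasome genes were examined in migratory cDC1 (type 1 conventional dendritic cells, specialised in cross-presenting antigen to CD8 T cells) with and without stimulation through CD40. Members were all genes whose symbol starts with Psm, 1 letter from a to g and a number, read from probe sets with exactly 1 gene symbol, with the probe set of highest mean taken for each gene. This gave 49 of the 12780 genes compared, from 55 probe sets. RefSeq lists 51 protein-coding genes that match the rule, and the other 2, Psma8 and Psme2b, were not analysed here. The symbol rule also takes in Psmc3ip, a meiotic recombination factor, and Psme3ip1, which binds the activator chain encoded by Psme3. Neither encodes a proteasome subunit, and both are described separately.

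There were 3 samples without stimulation and 3 stimulated with anti-CD40, each on its own Affymetrix array in 1 colour. All came from wild-type C57BL/6 mice and the lymph nodes that drain the skin. Both groups were sorted by flow cytometry as XCR1+ and CD40+ cells with high MHC class II and intermediate CD11c that lacked B220, CD326 and Sirpa, so the comparison holds no CD40-negative cells. The sources used here do not give the animals' age, any pooling of animals, or the dose, duration and route of the stimulation. The samples are called biological replicates with no statement that each came from other mice, so p-values reflect only how far these samples lie apart, which may be technical.

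The proteasome degrades proteins that carry ubiquitin chains. Its 20S core is a barrel of alpha and beta subunit rings, in which the beta subunits Psmb5, Psmb6 and Psmb7 cut the protein chain. In cells of the immune system, or after interferon gamma, the inducible subunits Psmb8, Psmb9 and Psmb10 can replace these catalytic subunits and so form the immunoproteasome, which produces many of the peptides that MHC class I presents. The 19S cap recognises, unfolds and feeds in the substrate, and PA28, built from Psme1 and Psme2, is another cap, also induced by interferon gamma. Dendritic cells are known to hold much immunoproteasome.

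Values are log2 of the deposited intensities, and differences are stimulated minus unstimulated on that scale. The median over the 12780 genes lay between 5.63 and 5.80 on the 6 arrays, and across genes Pearson's r between arrays of the same group was 0.915 to 0.958. Of the markers of mature migratory dendritic cells 8 of 8 were measured, with mean values from 7.10 to 12.58 (Ccr7), and of the cDC1 markers 7 of 8, from 4.56 (Xcr1, on which the cells were sorted) to 11.32 (Irf8). The summed intensity of the mature markers was 10305 to 20068 on unstimulated and 14676 to 25490 on stimulated arrays, and its part in the results was not tested. In these bulk samples, fewer cells of a type and less RNA per cell cannot be told apart. For B cells 3 of 6 markers, for T cells 5 of 8, for macrophages 1 of 8, for Langerhans cells and keratinocytes 3 of 4 and for fibroblasts and endothelium 4 of 5 were measured, and their highest mean was 6.01 (Col1a1).

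No proteasome gene passed the threshold in either direction. In the limma fit over all 12780 genes, 0 of 49 members were called higher and 0 lower at a Benjamini-Hochberg adjusted p under 0.05, where the background of all genes was 0.0156% higher (2 genes) and 0% lower (0 genes). The adjusted p was 0.999975 for every member. At an unadjusted p under 0.05, 2 members were higher (4.08%, against 2.07% of all genes) and 0 were lower (against 1.42%). The stimulated values lay above every unstimulated value for 6 members (12.2%, against 3.68% of all genes) and below every unstimulated value for 1 member (2.04%, against 3.46%). The 6 were Psmb2, Psmb7, Psmf1, Psmc2, Psmd10 and Psmg1, and the 1 was Psma1.

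The signs of the differences were uneven. Of the 49 members 34 had a positive and 15 a negative difference (69.4% positive, against 51.0% of all genes), with a median of 0.18 against 0.005 over all genes, which corresponds to 1.13-fold. Differences ran from -0.475 (Psma1) to 0.71 (Psmd10). With each array centred on its median 33 of 49 were positive with a median of 0.14, where all genes had 42.8% positive and a median of -0.04. The members as a group were bright, with a median 2.11 to 2.45 above that of all genes on the 6 arrays. With the dimmest genes left out, 34 of 48 were positive with a median of 0.18, where the 8520 genes kept had 56.1% and 0.04. After quantile normalisation once more, 33 of 49 were positive with a median of 0.13, where all genes had 49.8% and -0.001. The part of brightness in these signs was not tested. Without unstimulated replicate 2 the median was 0.109 and without stimulated replicate 2 it was 0.275. Members are chains of 1 complex measured on the same 6 arrays and are not independent of each other.

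The intervals describe the size of change gene by gene. The 95% interval of the difference, not adjusted for the number of genes, lay wholly within 2-fold in either direction for 34 of 49 members (69.4%, against 77.95% of all genes). It reached a 2-fold higher value for 12 members and a 2-fold lower value for 3. The interval left out 0 for 2 members, both assembly factors. The median standard error of a member was 0.245, against 0.223 over all genes. Single arrays carried much of these differences: leaving out 1 array moved the difference by over 1.5 times or turned its sign for 23 of the 26 members named in detail, the exceptions being Psmb7, Psmc2 and Psmd10.

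**Figure D1:**
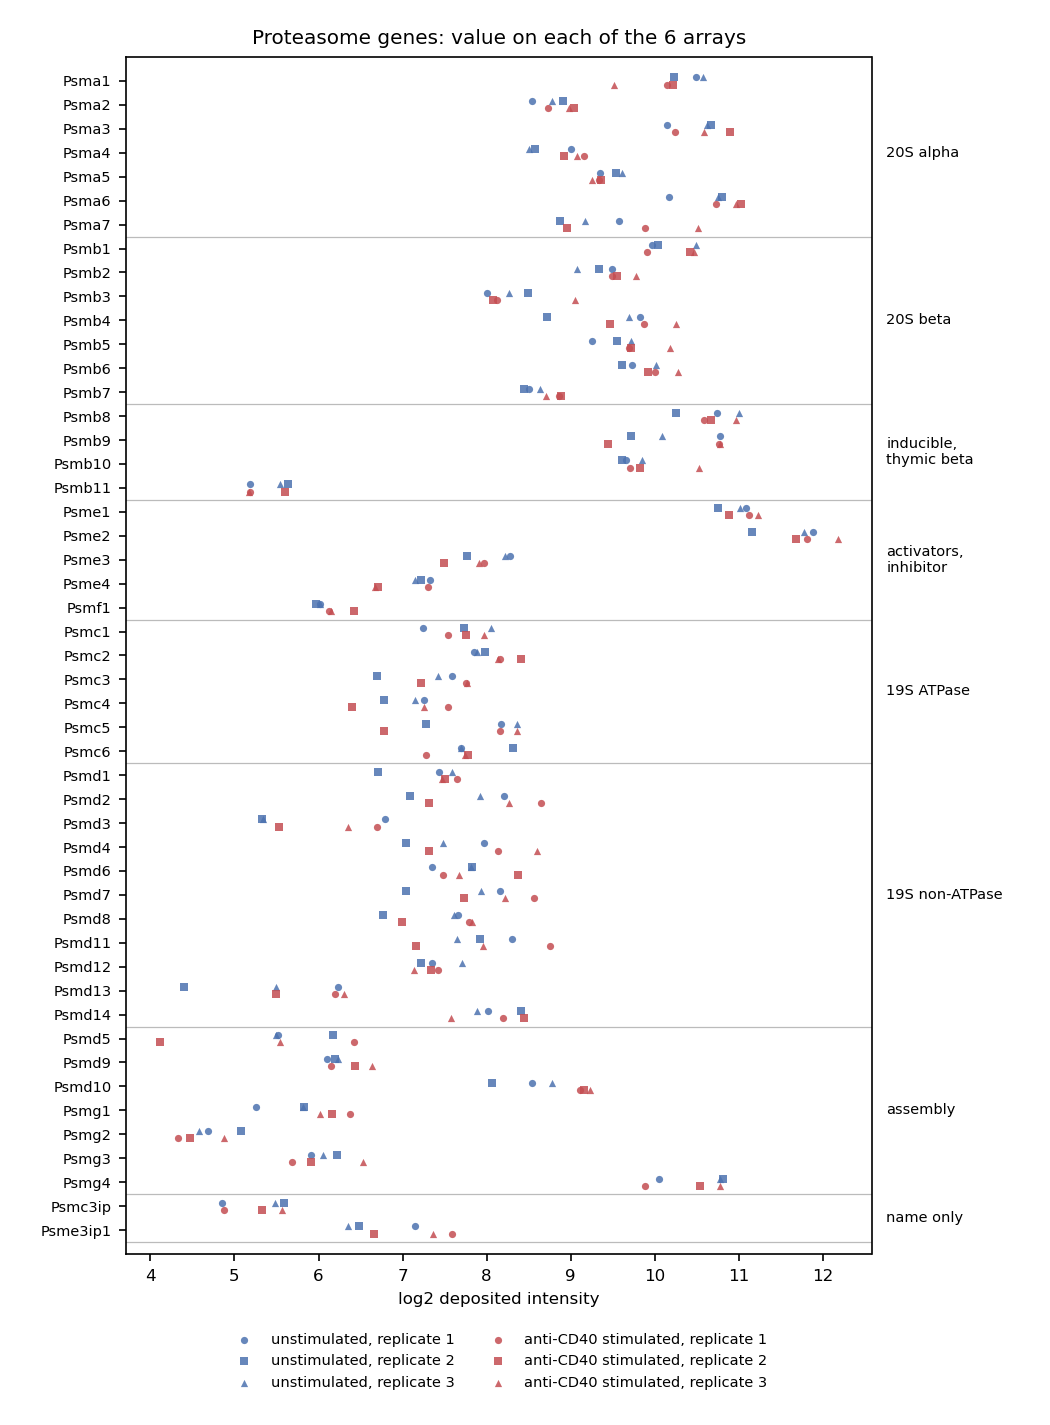
Log2 deposited intensity (x axis) of each of the 49 proteasome genes (rows, grouped by role) on the 6 arrays. Blue symbols are unstimulated and red symbols stimulated samples, and the shape gives the replicate number. Red and blue symbols overlap in all rows but 7, and levels of different genes come from different probes and are not comparable with each other.

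**Figure D2:**
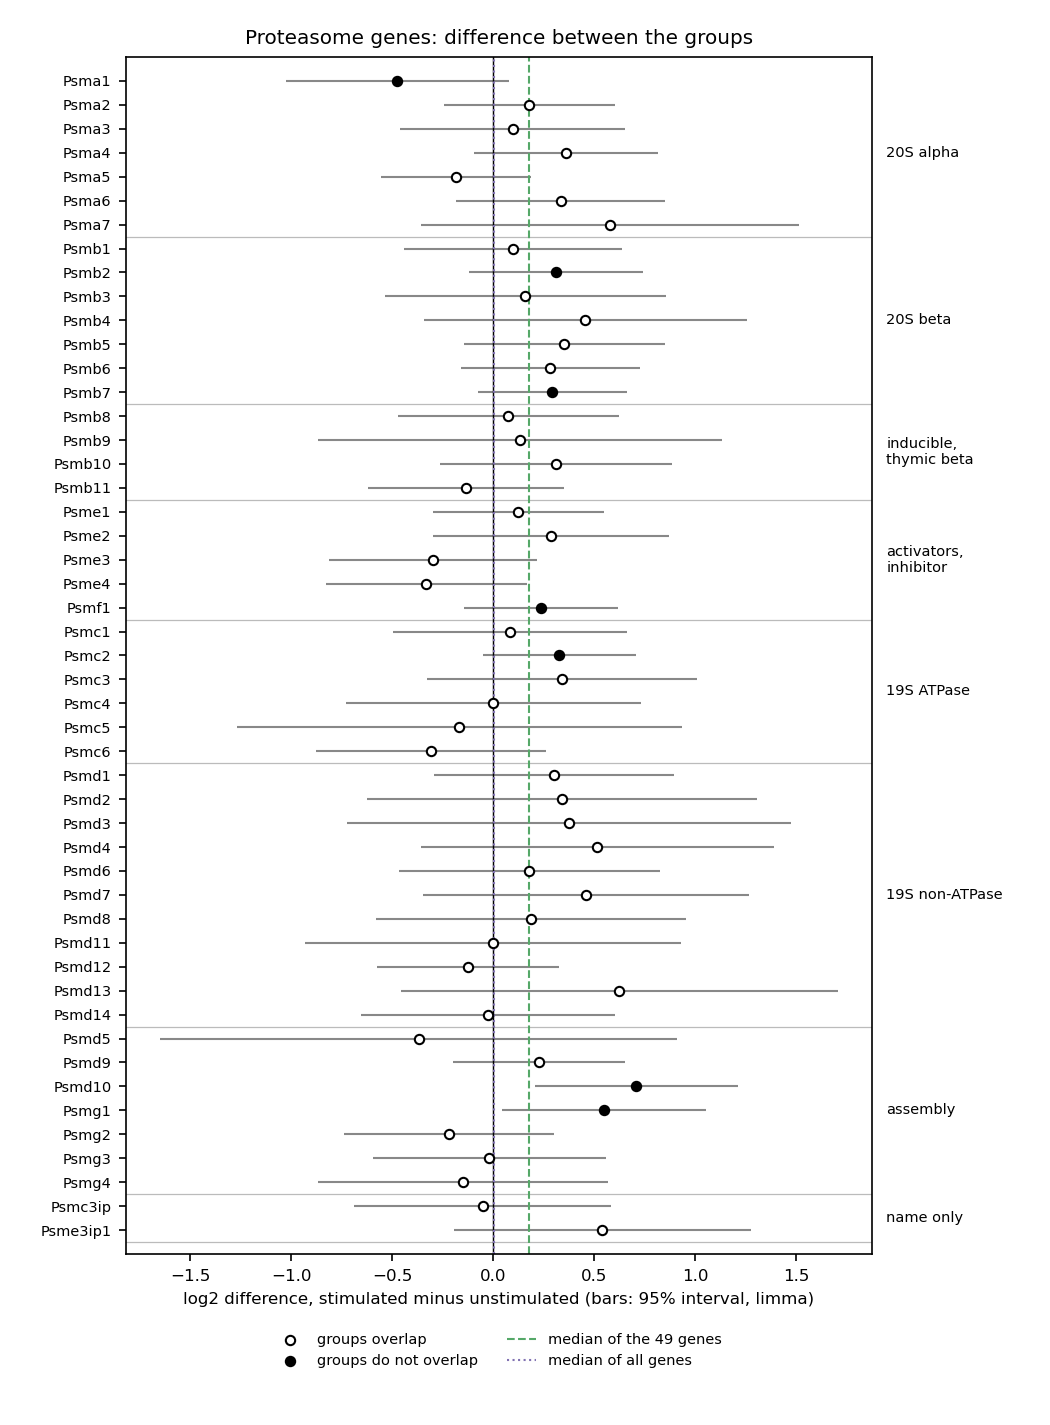
Log2 difference (x axis, stimulated minus unstimulated) of each of the 49 genes (rows, grouped by role) with its 95% interval from limma. Filled points mark the 7 genes whose groups do not overlap. The dashed line is the median of the 49 genes (0.18) and the dotted line that of all genes (0.005), and the interval leaves out 0 only for Psmd10 and Psmg1.

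The constitutive beta subunits of the 20S core all had positive differences in the main fit, although none passed. Of Psmb1 to Psmb7, 7 of 7 were positive, between 0.098 and 0.46 with a median of 0.29, or 0.19 without stimulated replicate 3. Not all of these signs were stable. Psmb3 was at 8.01, 8.50 and 8.27 without and 8.13, 8.07 and 9.05 with stimulation. Without stimulated replicate 3 its sign turned, since its other stimulated values lay below its unstimulated mean of 8.26. Psmb5, the subunit that cuts after hydrophobic residues, was at 9.26, 9.55 and 9.72 on unstimulated and 9.69, 9.72 and 10.18 on stimulated arrays. Its means were 9.51 ± 0.24 and 9.87 ± 0.28 (SD, n = 3 each), and the highest unstimulated array reached the range of the stimulated ones. The difference was 0.35 (95% interval -0.15 to 0.85).

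Psmb6, which cuts after acidic residues, was at 9.73, 9.61 and 10.01 without and 10.00, 9.92 and 10.28 with stimulation. Unstimulated replicate 3 lay within the stimulated range, and the difference was 0.28 (95% interval -0.16 to 0.73). Psmb7, which cuts after basic residues, was at 8.50, 8.44 and 8.63 without and 8.86, 8.89 and 8.71 with stimulation. Its groups did not overlap, with means of 8.53 ± 0.099 and 8.82 ± 0.098 (SD, n = 3 each). The difference of 0.29 (95% interval -0.08 to 0.66) was 1.23-fold.

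Psmb2 and Psmb4 are beta subunits without a catalytic site of their own. Psmb2 was at 9.49, 9.34 and 9.07 without and 9.49, 9.56 and 9.78 with stimulation. The groups were only just apart, at 9.487 on the highest unstimulated and 9.493 on the lowest stimulated array, and the difference was 0.31 (95% interval -0.12 to 0.74). Psmb4 had the largest difference of the class, 0.46 (95% interval -0.34 to 1.26), which rested on unstimulated replicate 2, at 8.72 against 9.82 and 9.69. Without that array the difference was 0.11, below the 0.37 of Psmb5.

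The inducible chains had values of at least 9.44 on every array and their groups overlapped. The standard error of the difference was 0.426 for Psmb9, against 0.234 for Psmb8 and 0.245 for Psmb10. Psmb8 encodes LMP7, the inducible counterpart of Psmb5. It was at 10.74, 10.26 and 10.9999 on unstimulated and 10.59, 10.67 and 10.97 on stimulated arrays. All stimulated values lay between the lowest and the highest unstimulated value. The difference was 0.08 (95% interval -0.47 to 0.62), and the upper end of this unadjusted interval corresponds to a 1.54-fold higher level. Its sign turned without unstimulated replicate 2 (-0.13) or stimulated replicate 3 (-0.04) and with array weights (-0.06).

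Psmb9 encodes LMP2, the counterpart of Psmb6. Its values were 10.78, 9.72 and 10.09 without and 10.77, 9.44 and 10.77 with stimulation, so the replicates of 1 group were further apart than the group means of 10.19 and 10.33. The difference of 0.13 had a wide interval (-0.87 to 1.13) and also turned sign when any 1 of unstimulated replicate 2 (-0.10), stimulated replicate 1 (-0.09) or stimulated replicate 3 (-0.09) was left out. In RefSeq's order of genes on chromosome 17, Psmb9 and Psmb8 stand on either side of Tap1, which encodes 1 chain of the pump that carries peptides into the endoplasmic reticulum. Tap1 was at 11.18, 9.07 and 10.15 without and 10.998, 9.53 and 10.54 with stimulation. Its lowest value was in replicate 2 of both groups, as for Psmb9 and for 23.6% of all genes. Psmb8 was not lowest in stimulated replicate 2, at 10.67 against 10.59 in stimulated replicate 1.

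Psmb10 encodes MECL-1, the counterpart of Psmb7. It was at 9.66, 9.61 and 9.85 without and 9.71, 9.82 and 10.52 with stimulation. Only stimulated replicate 3 stood above the unstimulated range, and the difference was 0.31 (95% interval -0.27 to 0.88), or 0.057 without that array. Psmb11, the beta subunit of the thymic cortical epithelium, was at 5.18, 5.64 and 5.54 without and 5.18, 5.60 and 5.17 with stimulation, with a difference of -0.13 (95% interval -0.62 to 0.35).

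Each inducible subunit was set against its constitutive counterpart within the same array, which asks whether the chains of a pair changed unequally. For Psmb8 minus Psmb5 the log2 difference between the probe sets was 1.49, 0.70 and 1.28 without and 0.90, 0.95 and 0.78 with stimulation. The change of -0.28 (95% interval -0.94 to 0.38) was not beyond the spread of the arrays (exact two-sided permutation test, n = 3 each, p = 0.40, 1 after Benjamini-Hochberg adjustment over the 3 pairs). Psmb9 minus Psmb6 changed by -0.15 (95% interval -1.52 to 1.22, exact permutation p = 0.90, adjusted p = 1). Psmb10 minus Psmb7 changed by 0.02 (95% interval -0.85 to 0.88, exact permutation p = 1, adjusted p = 1). A comparison of 3 against 3 arrays cannot give an exact two-sided p below 0.10, and the intervals leave room for a change of the pair ratio in either direction. With 1 array left out, Psmb8 minus Psmb5 ran from -0.50 (without unstimulated replicate 2) to -0.11 (without unstimulated replicate 1). Psmb9 minus Psmb6 turned sign, to 0.17 without unstimulated replicate 1 and 0.22 without stimulated replicate 2, and was 0.24 with array weights. Psmb10 minus Psmb7 ran from -0.29 (without stimulated replicate 3) to 0.19 (without stimulated replicate 1).

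**Figure D3:**
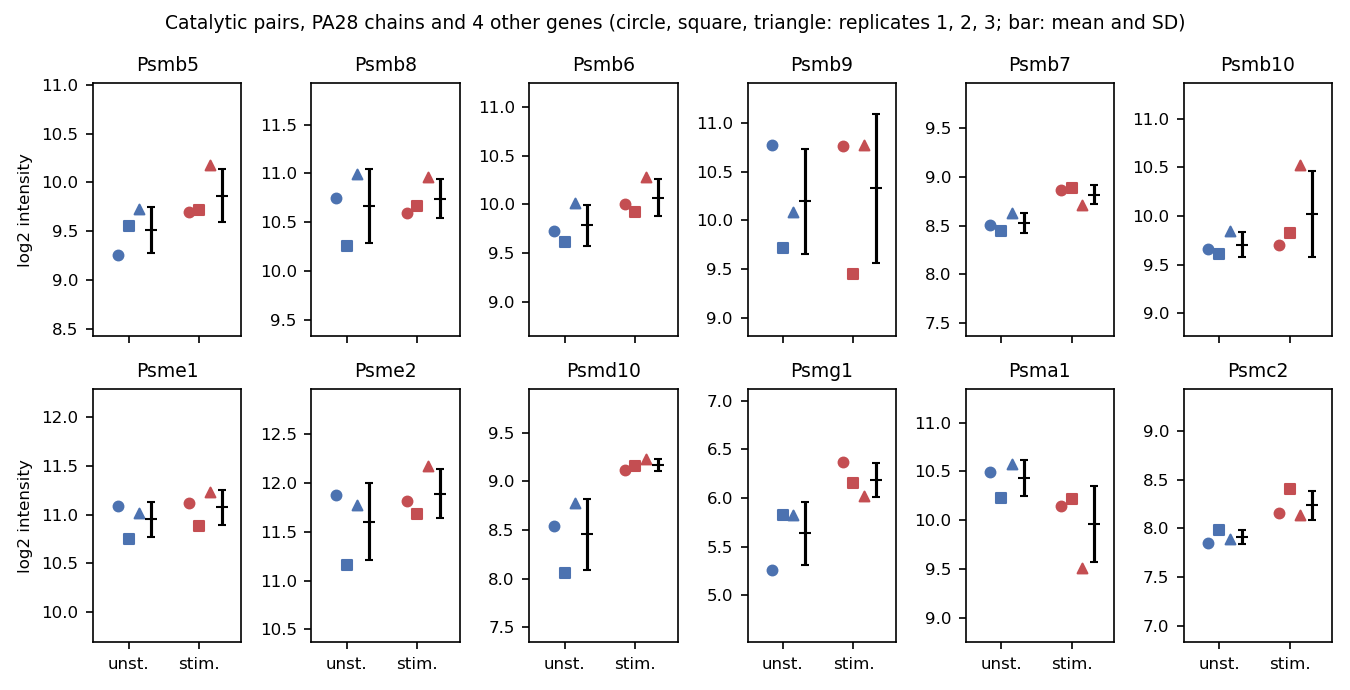
Log2 deposited intensity (y axis, every panel with the same span around its own centre) of the 3 catalytic pairs, both PA28 chains and 4 other genes in unstimulated (blue) and stimulated (red) samples. Symbols give the replicates and black bars the mean and SD of 3 samples. The groups are apart for Psmb7, Psmd10, Psmg1, Psma1 and Psmc2 and overlap for the others.

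RefSeq promoter windows (GRCm38.p6, 250 bases before to 50 after an annotated start) were held for 42 of the 49 members. A gene can have more than 1 such start, and these members had 46 windows. The Psmb6 stretch printed below lies within the RefSeq span of that gene, which begins at 70525324. Entries were missing for Psmb1, Psmb2, Psmb7, Psmc3, Psmd3, Psmd7 and Psmg2. On either strand, the core of the antioxidant response element, TGACNNNGC, through which the transcription factor encoded by Nfe2l1 is known to act on proteasome genes, was found in 6 of 46 member promoters (13.0%) and in 12.4% of all 32851 promoters. The CCAAT box was found in 16 of 46 (34.8%, all promoters 37.4%). The interferon-stimulated response core GAAANNGAA was found in 7 of 46 (15.2%, all promoters 8.56%), and the gamma-activated sequence TTCNNNGAA in 3 of 46 (6.52%, all promoters 8.30%). The latter 2 patterns both end in GAA and can overlap. For 6 genes, chosen to set constitutive and inducible catalytic subunits and both assembly factors side by side, 1 match each is printed 5′ to 3′ with the matching letters in capitals. Psmb5 and Psmb6 hold the antioxidant response core, Psmb8 and Psmg1 the gamma-activated sequence, and Psmb9 and Psmd10 the CCAAT box in reverse complement.
Psmb5, chr14:54618014-54618062, minus strand: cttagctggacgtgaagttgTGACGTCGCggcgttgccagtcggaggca
Psmb6, chr11:70525328-70525356, plus strand: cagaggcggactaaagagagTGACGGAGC
Psmb8, chr17:34198078-34198126, plus strand: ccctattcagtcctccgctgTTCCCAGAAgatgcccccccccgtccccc
Psmb9, chr17:34187331-34187358, minus strand: tgcaccgcgcgcagccgctgATTGGaaa
Psmd10, chrX:140956712-140956755, minus strand: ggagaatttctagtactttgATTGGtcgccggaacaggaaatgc
Psmg1, chr16:95991175-95991210, minus strand: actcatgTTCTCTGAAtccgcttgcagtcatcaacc
A match describes the letters only. Psmd10 holds the CCAAT pattern 3 times in its window, of which 1 is shown. Psma1 and Psmc2 also hold CCAAT patterns, which are not printed. The interferon-stimulated response core was found for Psmb3, Psmb4, Psme1, Psmc2, Psmd4, Psmd9 and Psmg4, so among the inducible chains only for Psme1, where it lies after the gene start and is not printed. Psmb10 and Psme2 held none of the 4 patterns in this window.

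Both PA28 chains had positive differences, their groups overlapped and their intervals held 0. Psme1, its alpha chain, was at 11.09, 10.75 and 11.01 without and 11.12, 10.88 and 11.23 with stimulation, and differed by 0.12 (95% interval -0.30 to 0.55). Psme2, its beta chain, was at 11.88, 11.16 and 11.78 without and 11.81, 11.69 and 12.18 with stimulation. It differed by 0.29 (95% interval -0.30 to 0.87), or 0.060 without unstimulated replicate 2, and a second probe set shared by Psme2 and its near copy Psme2b by 0.19 (95% interval -0.27 to 0.64). Above the unstimulated range lay stimulated replicates 1 and 3 for Psme1 and only replicate 3 for Psme2. Taking Psmb8, Psmb9, Psmb10, Psme1 and Psme2 as the genes that interferon gamma induces, 5 of 5 had positive differences, from 0.08 to 0.31 with a median of 0.13, and the groups overlapped for each. This median was 0.024 without unstimulated replicate 2, 0.049 without stimulated replicate 3 and 0.39 without stimulated replicate 2, and the sign of Psmb8 and Psmb9 turned as given above.

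The other activators had differences of the opposite sign. Psme3 encodes PA28 gamma, a nuclear cap, and was at 8.28, 7.77 and 8.22 without and 7.97, 7.50 and 7.91 with stimulation. It differed by -0.298 (95% interval -0.81 to 0.22). Psme4 encodes PA200, a cap linked to histone degradation, and was at 7.32, 7.22 and 7.15 without and 7.30, 6.71 and 6.68 with stimulation. It differed by -0.33 (95% interval -0.83 to 0.17), since stimulated replicates 2 and 3 lay below all unstimulated arrays while replicate 1 did not. Psmf1, which encodes the proteasome inhibitor PI31, was at 6.02, 5.97 and 6.01 without and 6.13, 6.43 and 6.15 with stimulation. Its groups did not overlap, and the difference was 0.24 (95% interval -0.14 to 0.62).

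The alpha subunits, which form the outer rings and the gate of the core, held the only member whose stimulated values lay below all unstimulated ones. Psma1 was at 10.49, 10.23 and 10.58 without and 10.14, 10.22 and 9.51 with stimulation, with means of 10.43 ± 0.18 and 9.96 ± 0.39 (SD, n = 3 each). The groups were only just apart, at 10.228 on the lowest unstimulated and 10.223 on the highest stimulated array, and stimulated replicate 3 was far lower than the other stimulated arrays. The difference was -0.475 (95% interval -1.03 to 0.08), and it was -0.25 without stimulated replicate 3. Psma7 had the largest positive difference of the class, 0.58 (95% interval -0.36 to 1.51). It was at 9.58, 8.87 and 9.18 without and 9.89, 8.95 and 10.52 with stimulation, and without stimulated replicate 3 the difference was 0.21. Of the 7 alpha subunits 5 differed in the positive direction and 2 in the negative, and the class median was 0.18, or 0.075 without unstimulated replicate 1.

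Among the 6 ATPases of the 19S base, which unfold the substrate, 4 differences were positive and 2 negative, with a median of 0.04, which was 0.28 without stimulated replicate 2 and -0.06 without stimulated replicate 3. Psmc2 was at 7.85, 7.99 and 7.89 without and 8.16, 8.41 and 8.14 with stimulation. Its groups did not overlap, the replicates lay close together, and the difference of 0.33 (95% interval -0.05 to 0.71) was 1.25-fold. Psmc3 had the largest difference of the class, 0.34 (95% interval -0.33 to 1.01), with overlapping groups, and 0.071 without unstimulated replicate 2. Psmc6 had the lowest, -0.31 (95% interval -0.88 to 0.26), with 7.70, 8.31 and 7.70 without and 7.27, 7.77 and 7.74 with stimulation. Unstimulated replicate 2 was the high array, and without it the difference was -0.10.

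The 11 non-ATPase subunits of the 19S cap bind ubiquitin, remove it or form the lid. Their differences were positive for 8 and negative for 3, with a median of 0.30, and the groups overlapped for each of them. The median was 0.12 without either unstimulated replicate 2 or stimulated replicate 1, and 0.46 without stimulated replicate 2. Psmd13, a lid subunit, had the largest difference, 0.62 (95% interval -0.46 to 1.71). It was at 6.24, 4.40 and 5.49 without and 6.20, 5.499 and 6.31 with stimulation, and unstimulated replicate 2 was by far its lowest array. Without that array the difference was 0.14. Psmd12, another lid subunit, had the lowest difference, -0.12 (95% interval -0.57 to 0.33), which turned to 0.02 without unstimulated replicate 3.

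The assembly factors held both the member with the largest positive difference and the member with the widest range. Psmd10 encodes gankyrin, a chaperone that helps to assemble the ATPase ring of the 19S base and is also known as an oncoprotein. It was at 8.54, 8.06 and 8.77 on unstimulated and 9.11, 9.16 and 9.23 on stimulated arrays, with means of 8.46 ± 0.36 and 9.17 ± 0.060 (SD, n = 3 each). All stimulated arrays lay above all unstimulated ones. The difference was 0.71 ± 0.21 (SE), or 1.64-fold (95% interval 1.15 to 2.32), with an unadjusted limma p of 0.0125 and an adjusted p of 0.999975 over all genes. Over 18 refits the difference stayed positive, between 0.50 and 0.87, and it was not called in any of them (adjusted p 0.184 to 0.99999).

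Psmg1 encodes PAC1, which with the product of Psmg2 helps the alpha ring to form. It was at 5.26, 5.83 and 5.82 without and 6.37, 6.16 and 6.02 with stimulation, and the groups did not overlap. The difference was 0.55 ± 0.22 (SE), or 1.46-fold (95% interval 1.03 to 2.08), with an unadjusted limma p of 0.0376 and an adjusted p of 0.999975. Its partner Psmg2 was at 4.68, 5.08 and 4.57 without and 4.33, 4.47 and 4.88 with stimulation, with overlapping groups. Psmd5, which with Psmd10 and Psmd9 acts in assembly of the 19S base, was at 5.52, 6.17 and 5.497 without and 6.42, 4.11 and 5.54 with stimulation. This was the widest range of any member (2.31), and the difference of -0.37 became 0.25 without stimulated replicate 2. The 7 assembly factors had 3 positive and 4 negative differences and a median of -0.02. The sign and size of this median rested on single arrays, at 0.21 without stimulated replicate 2, 0.16 without stimulated replicate 1 and -0.26 without stimulated replicate 3, and it was 0.25 with array weights.

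Neither gene that matched by name only passed. Psmc3ip was at 4.85, 5.59 and 5.49 without and 4.88, 5.32 and 5.57 with stimulation, with a difference of -0.05 (95% interval -0.69 to 0.58). Psme3ip1 was at 7.15, 6.49 and 6.35 without and 7.59, 6.66 and 7.36 with stimulation, with a difference of 0.54 (95% interval -0.20 to 1.28).

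For 35 of 49 members (71.4%, all genes 82.3%) the range of the replicates was wider than the difference between the group means in both groups. For 16 of 49 members (32.7%, all genes 23.6%) replicate 2 was the lowest array in both groups, and for 12 replicate 1 was (24.5%, close to the 23.4% of all genes). The members that were lowest in replicate 2 included 6 of 11 non-ATPase subunits (Psmd2, Psmd3, Psmd4, Psmd7, Psmd8 and Psmd13), 3 of 6 ATPases (Psmc3, Psmc4 and Psmc5) and 3 of the 5 activators and inhibitor (Psme1, Psme2 and Psme3). They also included 2 of 7 constitutive beta subunits (Psmb4 and Psmb6), 1 of 4 inducible or thymic ones (Psmb9), 1 of 7 alpha subunits (Psma7) and 0 of 7 assembly factors. Psmc5 was at 8.18, 7.27 and 8.36 without and 8.16, 6.78 and 8.37 with stimulation, so replicates 1 and 3 were alike across the groups and replicate 2 stood apart in both. By contrast Psma2, Psma3 and Psma6 were lowest in replicate 1 of both groups. Psma6 was at 10.16, 10.80 and 10.76 without and 10.73, 11.03 and 10.97 with stimulation.

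The median of the non-ATPase subunits was 7.67, 7.04 and 7.65 on unstimulated and 7.79, 7.32 and 7.67 on stimulated arrays. This was not particular to them. The medians of the alpha, constitutive beta and ATPase subunits and of the activators and inhibitor were also lowest in replicate 2 of both groups. That of the assembly factors was not. The interquartile range of all genes was 2.19, 1.74 and 1.92 without and 2.31, 1.75 and 2.03 with stimulation. This range was lowest in replicate 2 of both groups. With the interquartile range as a covariate, 35 of 49 members were positive with a median of 0.19 and 0 were called. Without both arrays of replicate 2, 35 of 49 were positive with a median of 0.199 and 0 were called. Beyond these refits, the part of the interquartile range in the result was not tested.

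**Figure D4:**
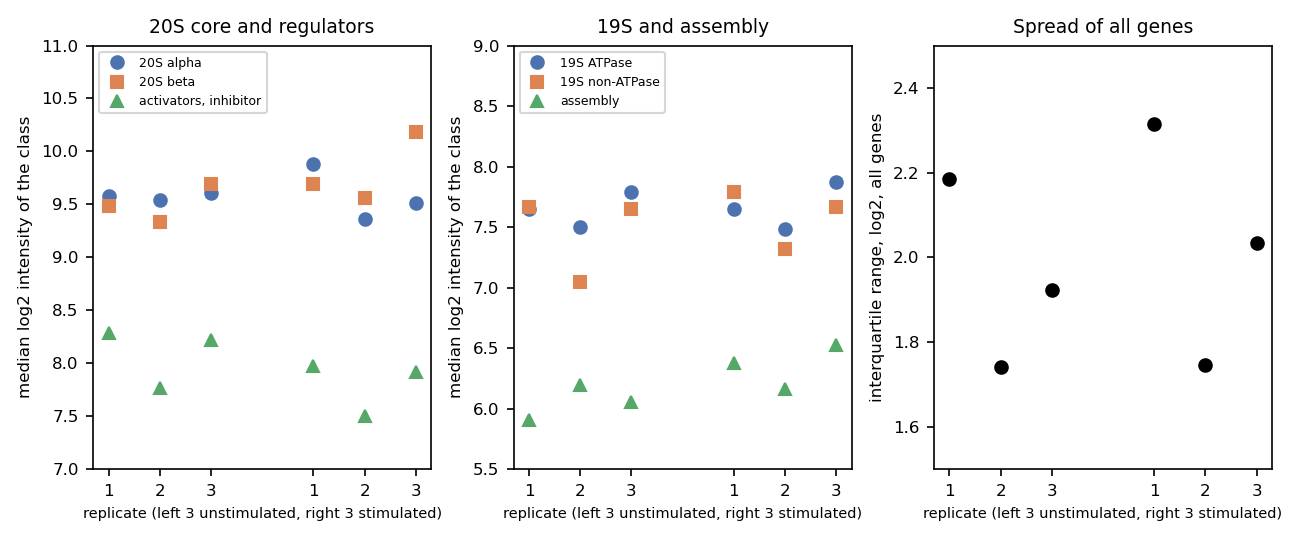
Median log2 deposited intensity of 6 classes of proteasome genes (y axis, left and middle panels) and interquartile range of log2 intensity over all genes (y axis, right panel) by replicate (x axis), with unstimulated samples on the left of each panel and stimulated ones on the right. Each point is 1 array. The interquartile range and the medians of all plotted classes but the assembly factors are lowest in replicate 2 of both groups.

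Of the members, 5 had more than 1 probe set with their symbol, and every interval of these held 0. The probe sets of Psma3 differed by 0.097, 0.12 and 0.093, and those of Psma5 by -0.18 and -0.05. Those of Psmd2 differed by 0.34 and 0.17, those of Psmb3 by 0.16 and 0.09, and those of Psmc1, where the sign was not the same, by 0.08 and -0.03. For Psmb3 the probe sets did not follow the same arrays: the one used was at 8.07 in stimulated replicate 2 where the other was at 5.74.

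Genes that work with the proteasome but fall outside the symbol rule were taken from a list of 30 entries with substrate shuttles, deubiquitinases, assembly and transport factors and regulators, of which 22 were measured. The limma fit called 0 higher and 0 lower (unadjusted p under 0.05 for 0 and 0), 9 differences were positive and 13 negative, and the median was -0.01. Pomp, the maturation factor of the 20S core, was at 10.82, 10.85 and 11.07 without and 10.95, 10.998 and 11.003 with stimulation. Nfe2l1, the transcription factor that raises proteasome genes when the proteasome is impaired, was at 8.54, 7.57 and 8.16 without and 8.75, 7.93 and 9.08 with stimulation. The highest difference was that of Vcp, the ATPase that extracts ubiquitinated proteins from membranes and complexes (0.75, 95% interval -0.24 to 1.74), and the lowest that of Ngly1, the glycanase that processes the Nfe2l1 protein (-0.57, 95% interval -1.16 to 0.02). In both the groups overlapped.

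A list of 16 genes of interferon gamma signalling and of the peptide route to MHC class I had 15 measured members. The limma fit called 0 of them (unadjusted p under 0.05 for 0), 8 differences were positive and 7 negative, and the median was 0.13, which turned to -0.10 without unstimulated replicate 2. Irf1, a transcription factor through which interferon gamma induces immunoproteasome genes, was at 9.43, 8.36 and 8.14 without and 10.10, 8.70 and 9.59 with stimulation. It had the highest difference, 0.82 (95% interval -0.23 to 1.88). Jak2, a kinase of the interferon gamma receptor, was at 10.70, 9.76 and 10.00 without and 10.04, 8.91 and 8.81 with stimulation and had the lowest, -0.90 (95% interval -1.81 to 0.009). In both the groups overlapped, and the intervals of this list were wide, with 4 of 15 wholly within 2-fold in either direction.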

How the data were processed

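The submitters' processing notes name Affymetrix Expression Console and RMA, which corrects the background, normalises arrays by quantiles and summarises probes. The sources used here give no versions. The authors deposited linear intensities for 17551 probe sets on 6 arrays (6.97 to 13701), of which log2 was taken. The interquartile range of these log2 values over the 12780 genes ran from 1.74 to 2.31 between arrays. The values of these genes thus did not share 1 distribution, and why was not tested. For every probe set the higher group geometric mean was at least 20.001, so dim genes may have been filtered, which no label states. The number of arrays, 3 per group, limits the precision. Of the probe sets, 13963 had 1 symbol in the platform annotation, 970 several and 2618 none, which left 12780 genes.

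The main test was limma 3.58.1 (lmFit and eBayes in R 4.3.3, no covariates), with Benjamini-Hochberg adjustment over 12780 genes. The pairs of subunits were compared by exact permutation. The fit was also run on simulated data, drawn independently for each gene and array. These held no shared deviation of arrays, so they cannot show how the fit behaves where arrays deviate together. Named in detail were the inducible chains, their counterparts, Psme3, both genes matched by name, the extremes of each class and members without overlap or with an unadjusted p under 0.05; members with wide ranges, or used to show how replicates differ, and Pomp, Nfe2l1, Tap1 and Psmg2 were picked with their values in view. The members and lists were chosen with earlier results of these data known. Alternatives were a variance trend, a filter on dim genes, further quantile normalisation, centring, weights per array, a block for the replicate number, omitting arrays in turn, other probe set rules and other thresholds. Chosen after seeing the data were the interquartile range as a covariate and leaving out both arrays of a number. Protein sequences were not used here. Figures were drawn with matplotlib 3.10.9.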

Additional observations from a re-analysis of the deposited data

How the results depend on the processing

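No proteasome gene was called in any of 18 refits or at the other thresholds (adjusted p under 0.01 or 0.1). The positive differences numbered 29 to 37 and the median ran from 0.11 to 0.28. The smallest adjusted p of a member was 0.1004, for Psma1 with array weights. Over all genes, against 2 higher and 0 lower, array weights called 28 higher and 18 lower, quantile normalisation or centring on medians 3 higher and 1 lower each, and the interquartile range as a covariate 11 higher and 4 lower. Leaving out any array, or both arrays of a number, called 0 to 0 higher, and an adjusted p under 0.01 called 0. The replicate number as a block called 30 genes higher, 8 lower and 0 members. Arrays of the same number deviated together with r = 0.727 and 0.594 for numbers 1 and 2 but 0.061 for number 3. Unstimulated replicate 3 did not correlate best with its own number, while every other array did. The protocols name no pairing, and the numbers were not taken as one. Of 26 members named in detail, 21 kept their sign in every refit. The others turned sign, and the cause was not tested. Psmb8 was -0.0587 with array weights and ran from -0.13 to 0.24 with arrays left out. Psmb9 was -0.0610 with the interquartile range as a covariate and ran from -0.14 to 0.57 with arrays left out. Psmc3ip was 0.0411 with that covariate and ran from -0.28 to 0.14. With arrays left out, Psmd12 ran from -0.25 to 0.096 and Psmd5 from -1.005 to 0.47.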
